A study of Homo sapiens with 6 samples.

Results

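The genes described are 8 transcription factors of the hepatocyte lineage, HNF4A, FOXA1, FOXA2, FOXA3, CEBPA, CEBPB, ONECUT1 and PROX1. They were taken by symbol from gene tables of 23228 genes, in which all 8 were present, and all 8 were among the 14537 genes with enough reads to be tested. RNA had been sequenced from Hep3B, an established human hepatocellular carcinoma cell line, in 3 control libraries and 3 libraries labelled PELP1-KD. The control cells carried a non-targeting shRNA, a short hairpin RNA that matches no human gene, and the PELP1-KD cells an shRNA against PELP1, a nuclear receptor coregulator. Both came from lentiviral particles. The PELP1-KD cells were stable clones selected with puromycin and pooled, so each library is a mixture of clones, and the sources used here do not say that the libraries of a group came from separate cultures. The p values therefore measure the spread between these libraries, which may be technical. By title these libraries hold the first of the study's PELP1 shRNAs, while their treatment text names both.

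Hepatocytes hold their identity through a small network of transcription factors that bind one another's promoters and, together, those of genes for plasma proteins and metabolic enzymes. HNF4A is a nuclear receptor at the centre of that network. The FOXA proteins are winged-helix factors that can bind DNA in closed chromatin, ONECUT1 (also called HNF6) and PROX1 are homeodomain proteins of the early liver bud, and CEBPA and CEBPB are leucine zipper proteins that read the same DNA motif. CEBPA is known for its high level in resting hepatocytes, and CEBPB for its rise in the acute phase response and in regenerating liver.

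HNF4A, CEBPB and CEBPA are the members whose promoters are shown, HNF4A and CEBPB because their reads rose most in the PELP1-KD group and CEBPA as the closest relative of CEBPB. HNF4A spans chr20:42984441-43060030 on the plus strand of hg19, with 11 exons in the tables, and is read from 2 promoters. P1 is known as the promoter of the adult liver, and P2 as that of the pancreas and the fetal liver. CEBPB, chr20:48807376-48809212 on the plus strand, and CEBPA, chr19:33790840-33793430 on the minus strand, each have 1 exon and no intron. The 250 bases before each start follow, 5′ to 3′ in the direction of the gene and read from GRCh37, whose chromosome coordinates hg19 shares.
HNF4A P1, chr20:43029674-43029923, plus strand: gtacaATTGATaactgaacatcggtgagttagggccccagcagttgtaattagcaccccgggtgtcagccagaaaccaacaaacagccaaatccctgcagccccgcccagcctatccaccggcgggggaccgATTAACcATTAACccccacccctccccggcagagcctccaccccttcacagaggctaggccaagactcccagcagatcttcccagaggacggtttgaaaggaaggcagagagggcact
HNF4A P2, chr20:42984191-42984440, plus strand: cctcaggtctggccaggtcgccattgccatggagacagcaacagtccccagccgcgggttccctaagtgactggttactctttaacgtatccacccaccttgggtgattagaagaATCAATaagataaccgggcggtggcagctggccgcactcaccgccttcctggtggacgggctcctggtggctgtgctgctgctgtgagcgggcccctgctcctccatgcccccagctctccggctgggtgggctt
CEBPB, chr20:48807126-48807375, plus strand: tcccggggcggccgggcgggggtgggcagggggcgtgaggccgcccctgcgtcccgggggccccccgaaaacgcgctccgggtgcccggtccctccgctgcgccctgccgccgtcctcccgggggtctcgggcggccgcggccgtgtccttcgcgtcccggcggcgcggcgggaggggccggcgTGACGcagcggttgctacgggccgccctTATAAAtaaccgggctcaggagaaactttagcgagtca
CEBPA, chr19:33793431-33793680, minus strand: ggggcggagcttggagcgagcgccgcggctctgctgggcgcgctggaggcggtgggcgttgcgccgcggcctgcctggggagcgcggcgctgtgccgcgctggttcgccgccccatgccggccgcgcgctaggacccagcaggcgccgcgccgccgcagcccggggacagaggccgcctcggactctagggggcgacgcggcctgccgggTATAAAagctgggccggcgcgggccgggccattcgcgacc
Capitals mark exact matches, on either strand, to the string GTTAAT, the ONECUT core ATCAAT, the half-site of the cAMP-response element TGACG or the TATA box TATAAA, so that ATTAAC and ATTGAT are the first 2 read from the other strand. GC boxes, GGGCGG, were searched too and are not in capitals.

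The P1 window of HNF4A held 2 matches to GTTAAT, which began 118 and 111 bases before the start, and an ONECUT core 245 bases before it. Of the 23232 windows of this length before annotated gene starts, 5.17% held GTTAAT and 4.84% an ONECUT core. The P2 window held an ONECUT core at 135 bases and no GTTAAT. The CEBPB window held TGACG, present in 22.3% of all windows, at 66 bases, TATAAA, present in 9.65%, at 38 bases, and 5 GC boxes, a motif in 47.9% of windows. The CEBPA window held TATAAA at 40 bases and 2 GC boxes, and the P1 and P2 windows of HNF4A held 1 GC box each. None of the members' windows had a match to the FOXA core TGTTTAC, the HNF4 half-site CAAAGGTCA or the C/EBP palindrome TTGCNNAA, which were in 2.57%, 0.306% and 7.9% of windows. A match here is a string of letters and not a measured binding site. The reads of HNF4A were summed over all exons, so transcripts from P1 and P2 cannot be told apart in the values below.

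The gene tables held between 26758363 and 34456542 reads per library, and the 8 factors took between 46881 and 58221 of them. Of all tested genes, 53.6% passed an adjusted p below 0.05 in either direction, by edgeR's quasi-likelihood test with Benjamini-Hochberg adjustment, and 26.8% were higher and 26.8% lower in the PELP1-KD group. The normalized reads of the groups did not overlap for 58.8% of genes. PELP1 itself had 4893, 4914 and 5102 normalized reads in control, while the PELP1-KD group had 4421, 4825 and 4840.2. Normalized reads are reads scaled to a common library size. The PELP1-KD mean was 94.5% of the control mean, a log2 fold change of −0.08 ± 0.04 (SE) that did not pass the test (adjusted p = 0.101). It passed with the replicate number as a block (−0.08, adjusted p = 0.0106) and on leaving out PELP1-KD replicate 3 (−0.11, adjusted p = 0.018) or both libraries numbered 3 (−0.09, adjusted p = 0.0244). It was −0.04 (adjusted p = 0.424) without PELP1-KD replicate 1, and −0.000466 (adjusted p = 0.987) when GC content and length were corrected for beside the block. The mRNA of the targeted gene was thus little changed in size in these libraries, although all its PELP1-KD values lay below every control. By Western blot, the study reported less PELP1 protein in its Hep3B knockdown cells, which read counts do not measure. Below, the name PELP1-KD stands for the label of the group and not for a loss of PELP1 measured in these counts.

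Of the 8 factors, CEBPB, HNF4A, FOXA3 and CEBPA rose in the PELP1-KD group, none fell, and FOXA1, FOXA2, ONECUT1 and PROX1 did not pass the test. That is 4 of 8 called, all higher, where 53.6% of all tested genes were called in either direction and 26.8% were higher. CEBPB rose to 150% of control and HNF4A to 118%, and the calls of FOXA3 and CEBPA, at about 108% and 107%, were lost under several other settings. No member changed at least 2-fold, a mark that 7.65% of all tested genes passed together with the adjusted p. The median log2 fold change of the members was 0.08, beside 0.004 over all tested genes. The groups did not overlap for CEBPB, HNF4A and FOXA3, that is 3 of 8 members, beside 58.8% of all tested genes. In bulk RNA a higher level in each cell and more cells with the transcript cannot be told apart.

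**Figure D1:**
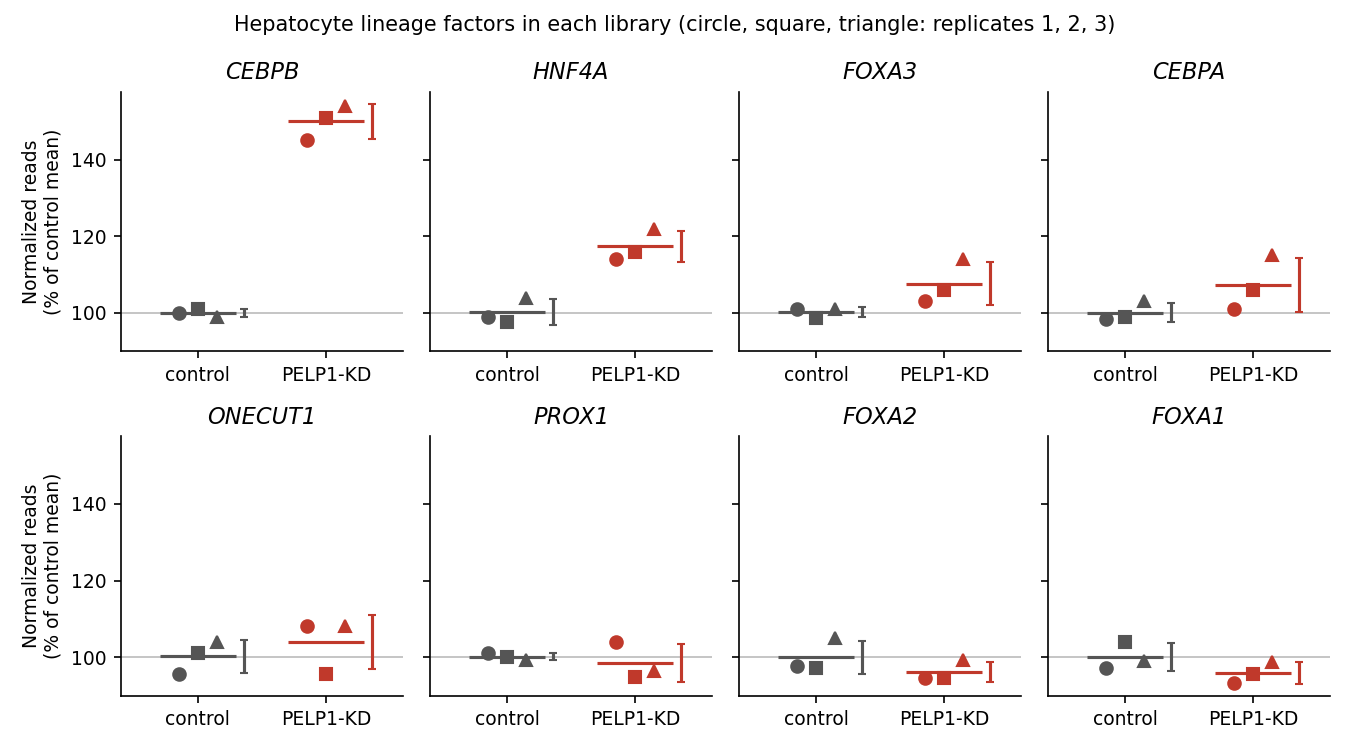
Normalized reads of each factor in the 6 libraries, as a percent of the control mean (vertical axis), with the group mean as a line, the SD as a bar, and replicates 1, 2 and 3 as circle, square and triangle. The libraries labelled PELP1-KD sat between 145% and 154% for CEBPB and between 114% and 122% for HNF4A, and those of FOXA1, FOXA2, ONECUT1 and PROX1 overlapped the controls.

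Among the leucine zipper factors, CEBPB had 2896, 2922 and 2868 normalized reads in the control libraries. The libraries labelled PELP1-KD had 4203, 4376 and 4451, all above every control. The means were 2895 ± 27.4 and 4343 ± 127 (SD, n = 3 each), and the log2 fold change was 0.58 ± 0.04 (SE, adjusted p = 1.56e-10, edgeR), with a 95% interval from 0.50 to 0.67. Over all 15 alternatives it lay between 0.56 and 0.75, and it passed the test in each.

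CEBPA had 22980, 23088 and 24014 normalized reads in the control libraries. The libraries labelled PELP1-KD had 23600, 24757 and 26815. The lowest of these was below the highest control, so the groups overlapped, and PELP1-KD replicate 3 stood highest. From 23361 ± 568 to 25057 ± 1628 (SD, n = 3 each) the log2 fold change was 0.10 ± 0.04 (SE, 95% interval 0.02 to 0.18, adjusted p = 0.0327, edgeR). Without PELP1-KD replicate 3 it was 0.05 and did not pass (adjusted p = 0.119). It also missed the threshold without control replicate 1, without control replicate 2, without PELP1-KD replicate 2 and with DESeq2.

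The exons of CEBPB and CEBPA are rich in G and C, at 66.25% and 65.88%. The 687 tested genes within 2 percentage points of the GC content of CEBPB had a median log2 fold change of −0.04, with quartiles at −0.31 and 0.20, and the 758 near CEBPA also had −0.04. When GC content and length were corrected for in each library, with the replicate number as a block, a setting chosen after the data had been seen, CEBPA was 0.27 (adjusted p = 2.1e-19) and CEBPB 0.75. Under that correction the median of all genes was 0.04. In all 6 libraries the counts of CEBPA and of HNF4A were not whole numbers, so some of their reads had been shared out as fractions. No other annotated gene overlaps their exons, and the place or gene that took the rest of these reads was not examined.

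HNF4A had 11401, 11239 and 11941 normalized reads in the control libraries. The libraries labelled PELP1-KD had 13166, 13388 and 14109, again all above every control. The means were 11527 ± 368 and 13554 ± 493 (SD, n = 3 each). The log2 fold change was 0.23 ± 0.04 (SE, 95% interval 0.16 to 0.31, adjusted p = 1.37e-05, edgeR). Over the 15 alternatives it lay between 0.20 and 0.29, and it passed the test in each. The exons of HNF4A are 56.67% G and C, and the 1832 tested genes within 2 percentage points of this had a median of 0.002.

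Of the FOXA genes, FOXA3 was called higher, and FOXA1 and FOXA2 were not called. FOXA3, a winged-helix factor of the liver and gut encoded at chr19:46367518-46377055, had 2241, 2190.0 and 2233 normalized reads in control. The PELP1-KD group had 2297, 2354 and 2527. All of the latter were above every control, by a small margin in replicate 1. The log2 fold change was 0.11 ± 0.04 (SE, 95% interval 0.01 to 0.20, adjusted p = 0.0481, edgeR). That p lay just inside the threshold, and the call was lost in 10 of 15 alternatives, among them DESeq2 (adjusted p = 0.0823). It was also lost on leaving out any 1 control, PELP1-KD replicate 2 or PELP1-KD replicate 3, with values from 0.07 to 0.14 over the single libraries left out. With the GC and length correction it was 0.16 (adjusted p = 1.03e-05).

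FOXA1, encoded on chr14:38059191-38064489, is known beyond the liver as the partner of steroid hormone receptors. It had 4585, 4901 and 4665 normalized reads in control and 4394, 4504 and 4658 in the PELP1-KD group, which overlapped. Its log2 fold change was −0.06 (95% interval −0.14 to 0.02, adjusted p = 0.200, edgeR). It passed the test with the GC and length correction (−0.06, adjusted p = 0.0438) and with both libraries numbered 3 left out (−0.09, adjusted p = 0.0152), another setting chosen after the data had been seen.

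FOXA2, at chr20:22561642-22566101, is needed for the endoderm from which the liver forms. Its normalized reads were 2403, 2388 and 2581 in control and 2325, 2322 and 2437 in the PELP1-KD group. The log2 fold change was −0.06 (95% interval −0.15 to 0.04, adjusted p = 0.292, edgeR), and the interval leaves room for a fall to 90.2% of control or a rise to 102%. The GC and length correction turned its sign, to 0.01.

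The homeodomain factors ONECUT1 and PROX1 had intervals that held both directions. ONECUT1, at chr15:53049353-53082209, had 939.6, 991 and 1019 normalized reads in control and 1059, 940.5 and 1063 in the PELP1-KD group. Its log2 fold change was 0.06 (95% interval −0.07 to 0.18, adjusted p = 0.438, edgeR), and it was 0.11 with the GC and length correction, where it passed (adjusted p = 0.0473). PROX1, at chr1:214161860-214209762, had 2189, 2172 and 2156 normalized reads in control and 2268, 2062 and 2092 in the PELP1-KD group. Its log2 fold change was −0.02 (95% interval −0.11 to 0.07, adjusted p = 0.717, edgeR). The libraries labelled PELP1-KD were more spread than the controls for PROX1, with an SD of 111 against 16.6, and replicate 1 was above and the others below every control.

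**Figure D2:**
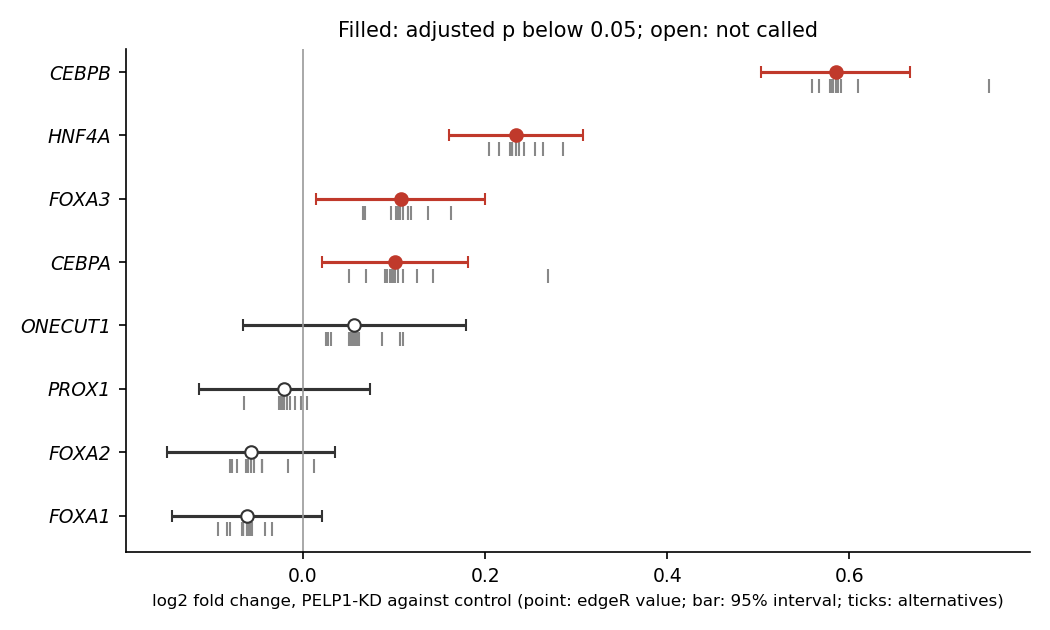
Log2 fold change of each factor between libraries labelled PELP1-KD and control (horizontal axis), with its 95% interval as a bar, filled where the adjusted p was below 0.05, and the values under the 15 alternatives as ticks. CEBPB and HNF4A lay above 0 with all their ticks, FOXA3 and CEBPA had intervals that began just above 0, and the intervals of ONECUT1, PROX1, FOXA2 and FOXA1 included 0.

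The level of the factors was compared per length, in reads per kilobase of exon and 1e+06 library reads (RPKM). Library sizes were scaled for this as in the edgeR test. In control, CEBPA stood highest with 286.9 ± 6.98 RPKM and HNF4A second with 99.8 ± 3.19 (SD, n = 3 each). CEBPB with 50.2 ± 0.475 and FOXA1 with 48.3 ± 1.68 followed, and their ranges overlapped. FOXA3 had 35.5 ± 0.441, FOXA2 29.9 ± 1.31, PROX1 22.5 ± 0.172 and ONECUT1 16.3 ± 0.664 RPKM, and none of these overlapped its neighbours. Per length, the order was the same in the PELP1-KD group. There CEBPB had 75.2 ± 2.2 RPKM, above FOXA1 with 46.2 ± 1.36, and the ranges of these no longer overlapped. The adult liver factor CEBPA and HNF4A thus held the top of the order in both groups.

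**Figure D3:**
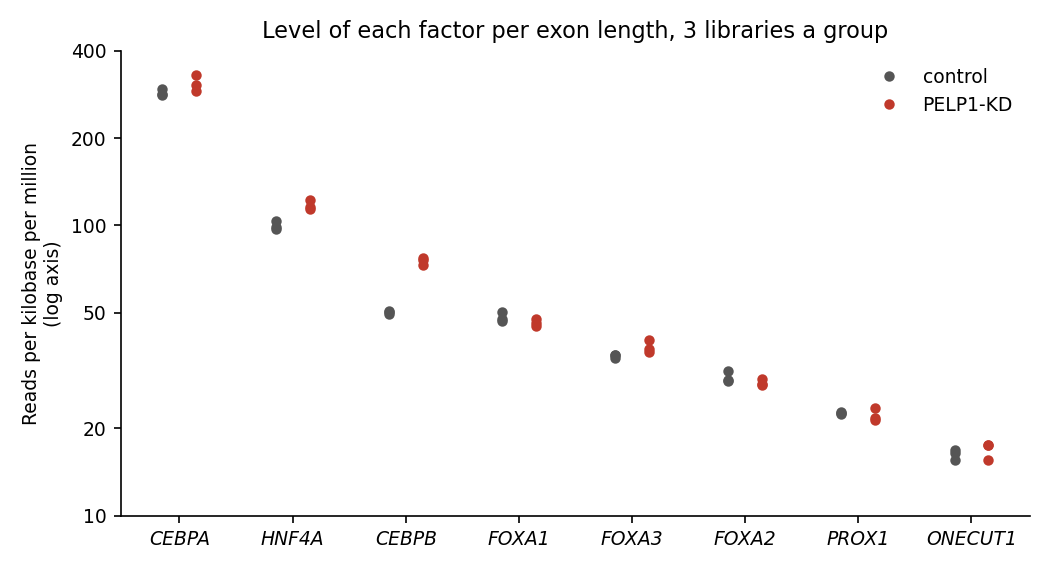
Level of each factor per exon length, in RPKM on a log axis, for the 3 control libraries and the 3 labelled PELP1-KD, ordered by the control mean. CEBPA stood near 300 and HNF4A near 100 in both groups, and CEBPB was level with FOXA1 in control and above it in the PELP1-KD group.

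Ratios between related factors within a library need no scaling between libraries. The log2 ratio of CEBPB to CEBPA, per length, was −2.492, −2.486 and −2.57 in control, and the PELP1-KD group had −1.993, −2.004 and −2.095. The groups did not overlap, and the difference was 0.49. CEBPB made up 14.4% to 15.1% of the summed level of both genes in control and 19% to 20.1% in the PELP1-KD group. The exact two-sided permutation test gave p = 0.1, the smallest that 3 libraries against 3 allow, and 0.133 after adjustment over the 4 ratios tested, so no ratio could pass the threshold by this test, which does not use the replicate numbers.

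Among the FOXA genes, the log2 ratio of FOXA1 to FOXA3 was 0.44 ± 0.07 in control and 0.27 ± 0.03 (SD, n = 3 each) in the PELP1-KD group, and that of FOXA2 to FOXA3 was −0.25 ± 0.06 and −0.41 ± 0.03. Neither pair of groups overlapped (differences of −0.17 and −0.16, exact permutation p = 0.1 for each). The ratio of FOXA1 to FOXA2 was 0.69 ± 0.09 and 0.68 ± 0.02, with an exact permutation p of 0.9. FOXA3 thus took 30.7% to 32% of the summed level of the 3 genes in control and 33.4% to 34.3% in the PELP1-KD group.

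**Figure D4:**
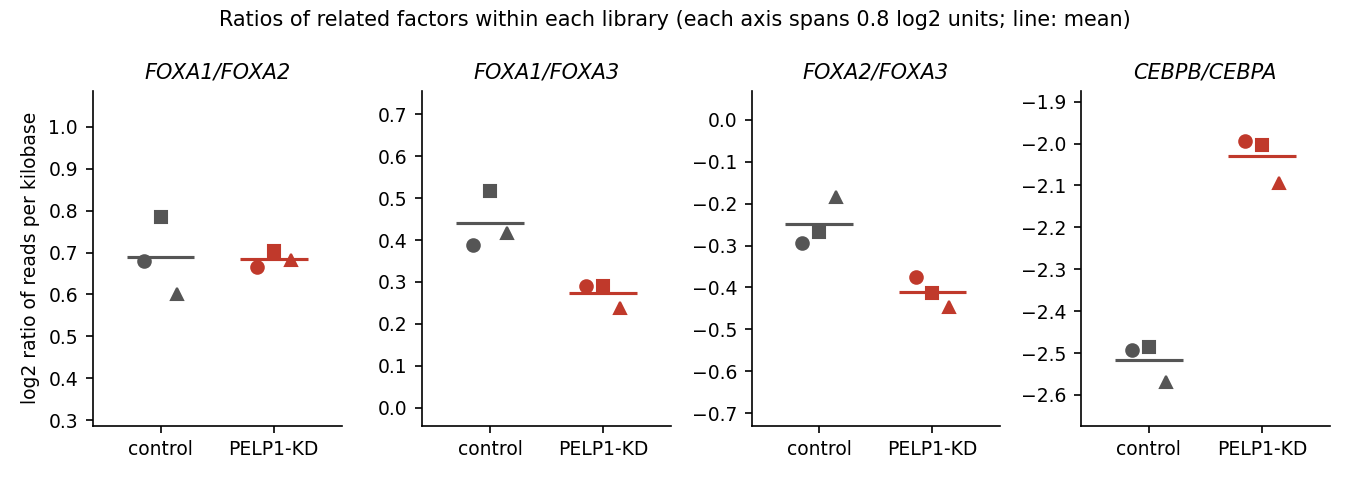
Log2 ratio of reads per kilobase of related factors within each library, by group, with the group mean as a line and replicates 1, 2 and 3 as circle, square and triangle; each vertical axis spans 0.8 units. The ratio of CEBPB to CEBPA moved from −2.52 to −2.03, both ratios with FOXA3 as the divisor were lower without overlap, and FOXA1 to FOXA2 overlapped.

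Of 8 relatives of these factors outside the group, 5 had enough reads to be tested, 4 rose and none fell, where 26.8% of all tested genes rose and 26.8% fell. At an adjusted p below 0.01 the number that rose was 2. CEBPD, like CEBPB a C/EBP factor of the acute phase response, went from 4975 ± 85.5 to 7419 ± 534 normalized reads, a log2 fold change of 0.58 ± 0.04 (SE, adjusted p = 1.29e-09, edgeR). DDIT3, the C/EBP partner also called CHOP that is known from the stress response, rose by 0.31. ONECUT2, a relative of ONECUT1, rose by 0.12, and CEBPG, a partner in C/EBP dimers, by 0.11. HNF4G, the relative of HNF4A in the gut, had 0.09 (adjusted p = 0.258, edgeR). ONECUT3, PROX2 and CEBPE had about 1 read or none per library and were not tested.

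Noncoding genes beside the factors were listed too. LINC00261, a long noncoding RNA gene next to FOXA2, had 5448 ± 81.5 normalized reads in control and 4248 ± 43 in the PELP1-KD group (SD, n = 3 each). Its log2 fold change was −0.36 ± 0.04 (SE, adjusted p = 6.56e-08, edgeR), while FOXA2 had −0.06. CEBPA-AS1 with 0.12 and PROX1-AS1 with 0.17 did not pass the test. HNF4A-AS1, CEBPB-AS1 and FOXA3-AS1 were not analysed here.

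The wider set of liver transcription factors split evenly. Of 22 on a list compiled from general knowledge, with earlier results of these data known, 21 were tested. Of these, 8 were lower, 8 higher and 5 did not pass. The median log2 fold change was 0.04. All tested genes were split evenly too, with 26.8% lower and 26.8% higher. CEBPD and ONECUT2, already counted among the relatives, are also on this list. NR0B2, an orphan receptor without a DNA-binding domain that represses other receptors, HNF4A among them, fell most and was the one gene of the list past 2-fold. It had 378, 395 and 426 normalized reads in control and 78.8, 77.0 and 98.9 in the PELP1-KD group, a log2 fold change of −2.23 ± 0.11 (SE, adjusted p = 1.10e-12, edgeR). HHEX with −0.82, KLF15 with −0.96 and RXRA, the common partner of nuclear receptors, with −0.38 also fell. CREB3L3 with 0.89, GATA4 with 0.44 and GATA6 with 0.40 rose. HLF, which fell by 0.85, was picked by the study for a further assay and is not independent evidence. PPARA, NR1I2, DBP, TEF and TBX3 did not pass.

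Textbook targets of the factors were mostly lower while the factors themselves were not. Of 28 targets of HNF4A, 22 were tested, 15 fell and 2 rose, with a median log2 fold change of −0.38, against −0.46 for FOXA targets (13 genes, 11 tested, 8 lower, 2 higher) and −0.50 for C/EBP targets (17 genes, 14 tested, 9 lower, 2 higher). The lists were written from general knowledge with earlier results of these data known, so their counts are no independent support. They share members. Together they hold 42 genes, of which 35 were tested, 23 fell, where 26.8% of all tested genes fell, and 4 rose. Of the 23, 6 fell at least 2-fold, where 4.79% of all tested genes did so. None rose at least 2-fold, which 2.85% of all tested genes did. With the replicate number as a block, 4 HNF4A targets were called higher in place of 2.

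APOA2, an apolipoprotein of high density lipoprotein, fell from 45691 ± 1005 to 7213 ± 244 normalized reads, a log2 fold change of −2.66. The study measured APOA2 for its change in these cells, so it is not independent evidence. F12, a coagulation factor, fell from 953 ± 61.4 to 394 ± 16.8 (−1.27). CPS1, the first enzyme of the urea cycle and a target of both FOXA and C/EBP factors, fell from 446 ± 32.3 to 94.9 ± 8.1 (−2.23). IGFBP1, an IGF-binding protein, and SAA1, an acute phase protein, each fell by 1.07. ALB, the albumin gene, fell from 347500 ± 5369 to 227270 ± 3053 normalized reads (−0.61). AFP, the fetal serum protein made by this tumour type, rose from 141440 ± 4100 to 218060 ± 6819 (0.62). MTTP, which loads lipid onto apolipoprotein B, rose by 0.48, and FGB, a fibrinogen chain, by 0.17. PCK1, on all 3 lists, rose by 0.93 from 13.8 normalized reads.

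**Figure D5:**
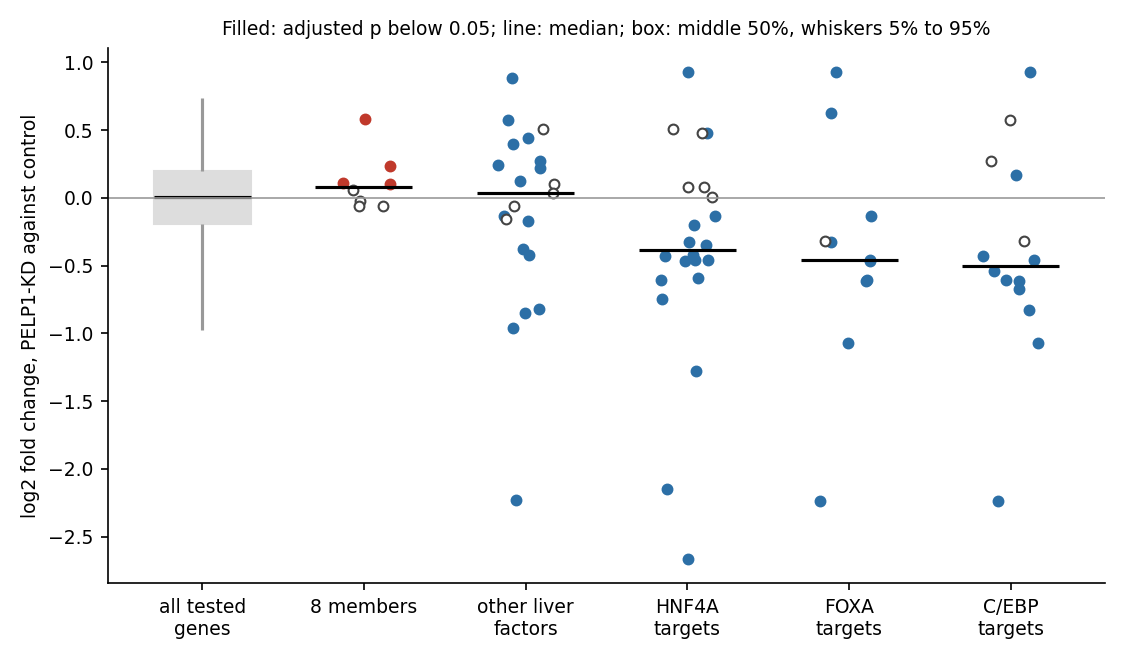
Log2 fold change between libraries labelled PELP1-KD and control (vertical axis) of the 8 members, of other liver transcription factors and of textbook targets, beside all tested genes as a box of the middle 50% with whiskers from the 5th to the 95th percentile. Filled points passed the test, lines are medians, and the members lay between −0.06 and 0.58 while the median of each target list lay between −0.50 and −0.38.

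The pattern over the 6 libraries was compared with that of 6369 other genes with a mean log2 CPM above 5, as the root mean square distance of log2 values centred on the control mean. HOXC10 (0.0248), SAT2 (0.0252) and CABLES1 (0.0252) were nearest to CEBPB. LGMN (0.00856), FIGNL2 (0.0097) and RRBP1 (0.0106) were nearest to HNF4A. These distances are a description over 6 libraries.

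The hepatocyte label was checked against marker genes. All 10 hepatocyte markers were present, with a summed level of 14700 to 14900 RPKM in control and 10700 to 10800 in the PELP1-KD group. Of these, 8 fell while AFP and FGB rose, where 26.8% of all tested genes fell and 26.8% rose. All but FGA and AHSG are also on the target lists above, so this count largely repeats that result. In the sum, APOA2 (mean 3074 to 485 RPKM) and ALB (4921 to 3219) fell by the most RPKM. The summed level of 6 bile duct markers moved the other way, from 391 to 408 up to 640 to 685 RPKM. KRT19 made up most of this sum and of its rise, with means of 281 RPKM in control and 524 in the PELP1-KD group. EPCAM, SPP1 and CFTR also rose, CFTR from a mean of only 0.12 RPKM to 0.28. SOX9 did not pass, and KRT7 was not tested. The summed level of 7 mesenchymal markers went from 10.3 to 11.3 up to 17.4 to 17.7 RPKM, with COL1A1, COL1A2 and LUM higher, PDGFRB lower by a log2 fold change of −2.13, and COL3A1 not past the test. The endothelial sum stayed below 1 RPKM, with CDH5, KDR and PDPN at 0 in all 6 libraries. The blood list fell from 113 to 120 down to 64.8 to 65.8 RPKM, with HBB at 0, through LYZ and CD14, while CD68 rose. The part of these shifts in the values of the 8 factors was not tested.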

How the data were processed

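RNA-seq of 3 control and 3 PELP1-KD libraries of Hep3B cells was analysed, grouped by the sample labels. The 8 members and the gene lists were chosen with earlier results of these data known, and support nothing by that choice. The authors deposited estimated counts per gene, 1 table per library, without normalization. Their first line, per the file headers, gives featureCounts 1.5.0-p1, run by strand on hg19 gene models with a minimum mapping quality of 2, with reads of several places or genes shared out as fractions. The labels name HISAT2 as aligner, whereas the methods of the study name TopHat2 and HTSeq. They also differ on the RNA extraction and the puromycin dose. Values that were not whole made up 10.6% to 13.3% of each table, and genes with near-identical copies are less certain.

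Counts were rounded and tested with edgeR 4.0.16 (TMM, filterByExpr, glmQLFit with robust estimation, glmQLFTest, R 4.3.3), with Benjamini-Hochberg adjustment over 14537 tested genes and a threshold of 0.05. The median SE of a log2 fold change was 0.0632, and the biological coefficient of variation was 4.04%. Intervals use the 19.1 degrees of freedom of the fit. Paralog ratios were compared with exact permutation tests. The scripts were tested on simulated counts.

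Genes named are the members, PELP1, all listed relatives and noncoding neighbours in the tables, for each list up to 3 genes per direction past 2-fold with the smallest p, the 3 genes nearest to each of the 2 called members with the largest change (mean log2 CPM above 5), ALB and AFP. Other genes named (transcription factors below 2-fold, MTTP, FGB, PCK1 and the cell type markers) were picked from the lists after their values had been seen. A few genes that the rule names are not reported here. Symbols were matched through RefSeq names, by which LINC00261, CEBPA-AS1 and PROX1-AS1 are listed as NCRNA00261, LOC80054 and LOC100505832.

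Libraries with the same replicate number deviated together from their group means, with correlations of 0.336, 0.247 and 0.666 over 6370 genes. The correlation of control replicate 2 with PELP1-KD replicate 1 was 0.418, and that of control replicate 1 with PELP1-KD replicate 2 was 0.244. Only the libraries numbered 3 thus stood apart as a pair. The main fit had no block, so its p values leave unused any pairing by number, which was entered only as an alternative. Alternatives covered scaling in edgeR (size factors of DESeq2, upper quartile), the tool (DESeq2 1.42.0), the filter (none, or a minimum of 10 reads per library), counts rounded down, the replicate number as a block, an adjusted p below 0.01 for counts of genes, and each library left out. Chosen after seeing the data were the block together with a loess correction for GC content and length (span 0.3), and leaving out both libraries numbered 3.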

Additional observations from a re-analysis of the deposited data

How the results depend on the processing

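CEBPB and HNF4A passed the test under all 15 alternatives. FOXA3 lost its call with DESeq2's size factors (0.104), upper-quartile scaling (0.103), DESeq2 (0.104), at least 10 reads in every library (0.102) and both libraries numbered 3 left out (0.0684), and ranged from 0.0661 to 0.137 with single libraries left out. CEBPA lost it with DESeq2 (0.0974) and ranged from 0.0501 to 0.143 with single libraries left out. With the replicate block and GC correction FOXA1 (−0.0561) and ONECUT1 (0.107) were called and FOXA2 turned to 0.012, and with both libraries numbered 3 left out FOXA1 was called (−0.093). PROX1 ranged from −0.0645 to 0.00492 with single libraries left out, and the ratio of FOXA1 to FOXA2 from −0.0483 to 0.0433. Members called higher numbered 2 with DESeq2 or an adjusted p below 0.01, and 2 to 4 with single libraries left out; members called lower numbered 1 under both settings added later. Relatives called higher numbered 2 at an adjusted p below 0.01 and 2 to 5 with single libraries left out. HNF4A targets called higher numbered 4 with the replicate block, 5 with the block and GC correction, 1 at an adjusted p below 0.01, and 1 to 4 with single libraries left out. FOXA targets and C/EBP targets called higher each numbered 1 with both libraries numbered 3 left out and at an adjusted p below 0.01, and 1 to 2 with single libraries left out. Targets of all 3 lists called higher numbered 7 with the block and GC correction and 3 to 6 with single libraries left out. The cause was not tested for any of these. The replicate block changed no call of a member.

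Without length correction, the mean of FOXA1 was above that of CEBPB in both groups, with ranges that overlapped in the PELP1-KD group. FOXA2 then stood above FOXA3 in control, while in the PELP1-KD group FOXA3 had the higher mean and the ranges overlapped. The intervals of FOXA1, FOXA2, ONECUT1 and PROX1 bound the size of their differences under the main settings.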

Other observations

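CDX2, a homeobox factor of the gut that is not known for adult liver, had 4758 ± 181 normalized reads in control and 5654 ± 351 in the PELP1-KD group (SD, n = 3 each). The log2 fold change was 0.25 (adjusted p = 9.71e-05, edgeR). That count was above those of FOXA2, FOXA3, CEBPB, ONECUT1 and PROX1 in the same control libraries, without correction for length. PDX1, a factor of the pancreas and duodenum, went from 239.9 ± 13.7 to 294 ± 20.5 and the intestinal enzyme gene SI from 299.5 ± 12.8 to 374 ± 29.7 normalized reads, and both rose. VIL1, a microvillus protein of the gut and bile ducts, fell by 0.29. The summed level of 6 pancreas and gut genes was 150 to 159 RPKM in control and 148 to 164 in the PELP1-KD group, with INS at 0.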
